A study of Mus musculus with 4 samples.

Results

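Genes of peritoneal B cells were examined in RNA-seq of mouse peritoneal macrophages, together with *Cxcl13*, the chemokine that attracts B cells. The 9 genes were *Cxcl13*, *Cxcr5*, *Cd79a*, *Cd79b*, *Ms4a1*, *Pax5*, *Il5ra*, *Bhlhe41* and *Blk*, and all 9 were among the 15298 genes of the deposited values. They were selected on their expression in these same libraries, so their values are given as a description, with no test result. The authors used female BALB/c mice aged 6 weeks and sorted macrophages as CD11b-positive, F4/80-positive and Ly6G-negative cells of the peritoneal cavity. In the MCS group, microcurrent stimulation of 300 µA at 400 Hz was given at zeitgeber time (ZT) 2, lasting 15 min, through pads on the abdomen and back, under isoflurane. The control group had the same procedure, but no current was passed. Cells were collected at ZT2, directly after the procedure, or at ZT14, 12 h later. Each of the 4 conditions (control at ZT2, control at ZT14, MCS at ZT2 and MCS at ZT14) was represented by 1 library. How many mice a library combines was not stated in the sources used here.

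The cavity of the peritoneum holds resident macrophages and many B cells, a large part of them B-1 cells, which renew themselves and secrete natural antibody. CXCL13 is made by macrophages and stromal cells of serous cavities and guides B cells that carry its receptor CXCR5 into the cavity and its omental lymphoid clusters. CD79A and CD79B form the signalling part of the B cell receptor, and PAX5 keeps B cells committed to their lineage.

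Expression was given as CPM, the reads of a gene scaled to library size, normalized by the authors with edgeR. The values were whole multiples of 1 read in 100% of cases within 0.05 read, and the recovered reads totaled 8658191 for control and 8365590 for MCS at ZT2, and 9217493 for control and 9953243 for MCS at ZT14. One read equaled between 0.102 and 0.116 CPM. Intervals are 95% intervals computed from these reads, exact Poisson for a level and exact binomial (Clopper-Pearson) for a log2 ratio. They cover counting error only, and so describe the libraries and not the spread among mice. With 1 library per condition no value has a replicate check, and no test result is given for a difference of the 9 genes between conditions. A count test over both times, chosen after seeing the data, called 23 of 12404 genes (0.185%) for MCS. For time, over control and MCS, it called 271 (2.18%). The 9 genes were among those it ran over, but its results for them are not given. Log2 ratios were computed after 0.1 CPM was added to each value.

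*Cxcl13* was expressed in control at 193 CPM at ZT2 (interval 184 to 202) and 437 CPM at ZT14 (424 to 451), and with MCS at 222 CPM at ZT2 (212 to 232) and 106 CPM at ZT14 (99.4 to 112). Control at ZT14 was the highest library and MCS at ZT14 the lowest, with both ZT2 libraries between them. At ZT14 the level with MCS was 4.13-fold lower than in control, a log2 ratio of -2.05 (-2.15 to -1.95), which was the 10th lowest among 12418 genes with a log2 mean of both libraries above 0. At ZT2 it was slightly higher with MCS, by 0.20 on the log2 scale (0.11 to 0.30). In control, ZT2 was below ZT14 by a log2 ratio of -1.18 (-1.26 to -1.10). In MCS, ZT2 was above ZT14 by 1.07 (0.96 to 1.18). The time difference of *Cxcl13* thus had opposite directions in control and MCS, and the log2 ratio of MCS to control at ZT14 differed from that at ZT2 by -2.25 with the counting errors of the 4 libraries combined (-2.39 to -2.11). These comparisons share libraries. Control at ZT14, for example, enters both the ZT14 comparison with MCS and the time difference in control.

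**Figure D1:**
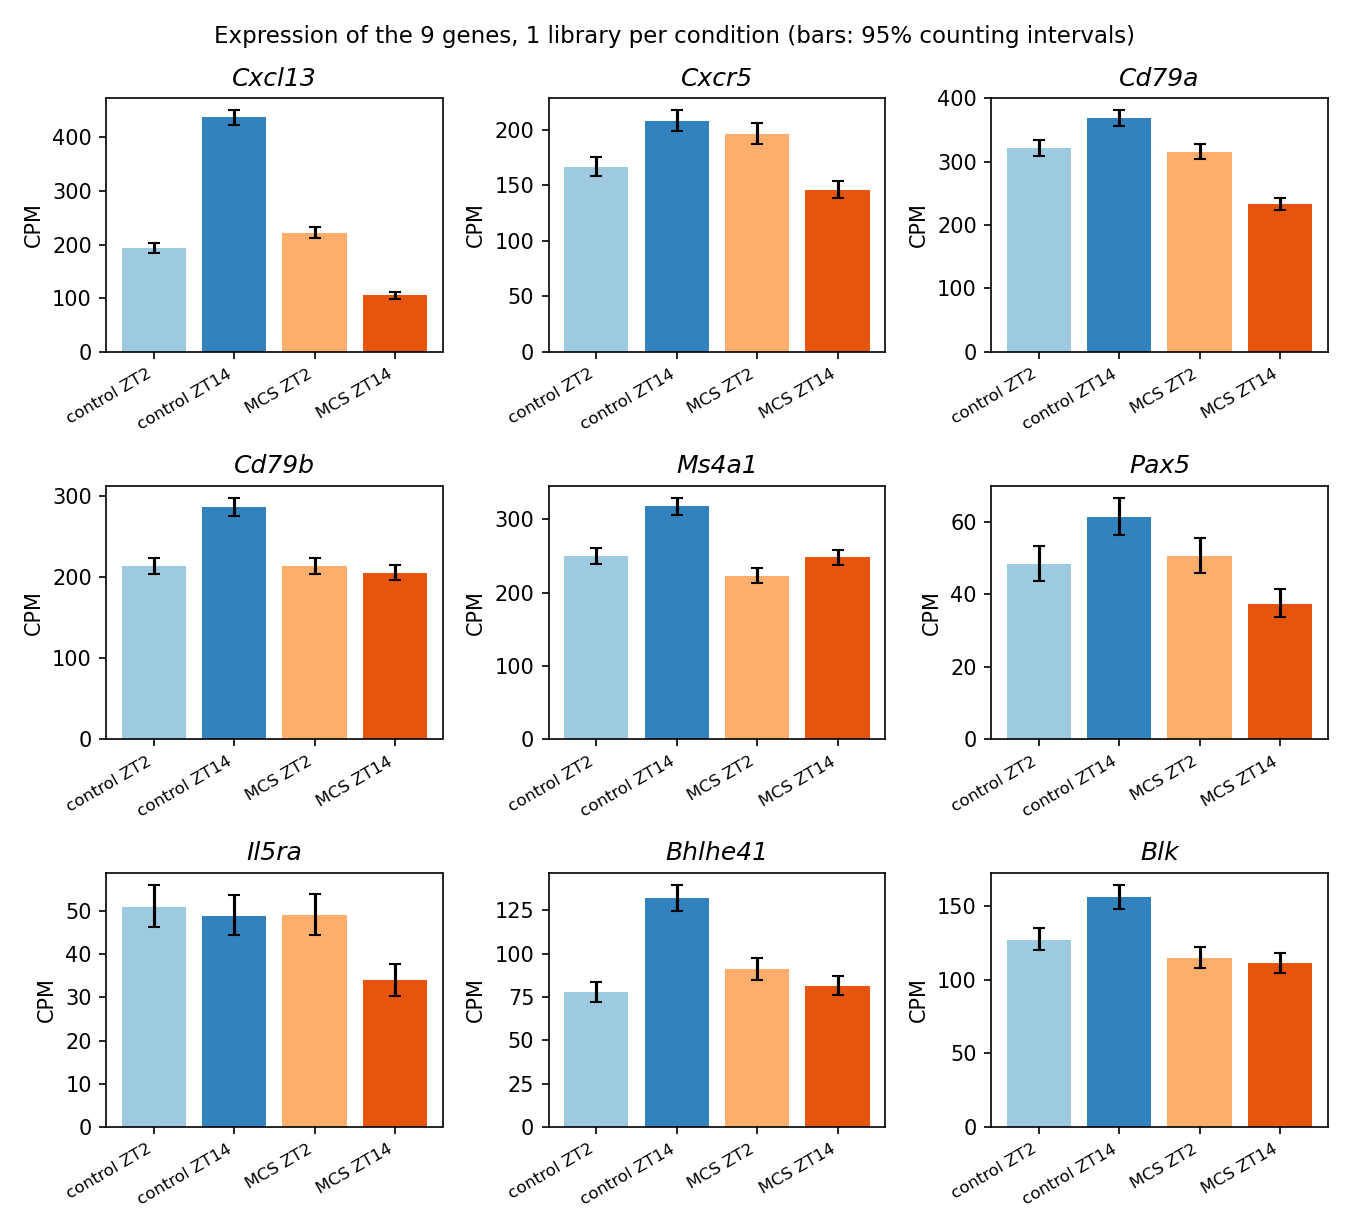
Expression of the 9 genes in CPM (vertical axes, each starting at 0) in the 4 libraries (bars, 1 library each), with 95% counting intervals. At ZT14, *Cxcl13* was at 437 CPM in control and 106 CPM with MCS. Control at ZT14 was the highest library for 8 of the 9 genes, the exception being *Il5ra*.

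*Cxcr5*, the receptor for CXCL13 on B cells, had 167, 208, 197 and 146 CPM in control at ZT2, control at ZT14, MCS at ZT2 and MCS at ZT14. It was lowest in MCS at ZT14, while control at ZT14 and MCS at ZT2 did not differ beyond counting error. The log2 ratio of MCS to control was -0.51 at ZT14 (-0.61 to -0.41) and 0.24 at ZT2 (0.14 to 0.34). As with its ligand, the receptor was lower with MCS at ZT14 and higher with MCS at ZT2. In bulk libraries, fewer B cells and less RNA per B cell cannot be told apart.

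*Cd79a*, which encodes the alpha chain of the signalling pair of the B cell receptor, had 321, 369, 316 and 233 CPM in the same order. The log2 ratio of MCS to control was -0.66 at ZT14 (-0.74 to -0.58) and -0.02 at ZT2 (-0.10 to 0.05). Its level was lowest in MCS at ZT14, and both ZT2 libraries lay between the ZT14 libraries without differing from each other beyond counting error. *Cd79b*, the beta chain of the pair, had 213, 286, 213 and 205 CPM. Here the control library at ZT14 stood above the others, which lay close together. The log2 ratio of *Cd79b* was -0.48 at ZT14 (-0.57 to -0.40) and 0.00 at ZT2 (-0.09 to 0.10). *Ms4a1*, which encodes the surface protein CD20 of mature B cells, had 250, 318, 223 and 248 CPM. Its lowest library was MCS at ZT2, and MCS at ZT14 did not differ from control at ZT2 beyond counting error. The log2 ratio was -0.36 at ZT14 (-0.44 to -0.28) and -0.16 at ZT2 (-0.25 to -0.07), so that *Ms4a1* was below control at both times.

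*Pax5*, the transcription factor that maintains B cell identity, had 48.3, 61.3, 50.6 and 37.3 CPM. MCS at ZT14 was the lowest library and control at ZT14 the highest. The log2 ratio of MCS to control was -0.71 at ZT14 (-0.91 to -0.52) and 0.07 at ZT2 (-0.13 to 0.26). *Il5ra*, the alpha chain of the receptor for interleukin 5, a growth factor of B-1 cells and eosinophils, had 51.0, 48.9, 49.1 and 33.9 CPM. Only MCS at ZT14 stood apart among its 4 libraries, and the other 3 did not differ beyond counting error. Its log2 ratio was -0.52 at ZT14 (-0.74 to -0.32) and -0.06 at ZT2 (-0.25 to 0.14). *Bhlhe41*, a transcriptional repressor needed by B-1a cells that also acts in the circadian clock, had 77.7, 132, 90.8 and 81.4 CPM. Control at ZT14 was again the highest library, and MCS at ZT14 and control at ZT2 did not differ beyond counting error. Its log2 ratio was -0.69 at ZT14 (-0.83 to -0.57) and 0.22 at ZT2 (0.07 to 0.38), and in control ZT2 was below ZT14 by a log2 ratio of -0.76 (-0.90 to -0.62). *Blk*, a kinase of the Src family that acts downstream of the B cell receptor, had 127, 156, 115 and 111 CPM. Both MCS libraries were below both control libraries. The log2 ratio of *Blk* was -0.49 at ZT14 (-0.60 to -0.37) and -0.15 at ZT2 (-0.27 to -0.02).

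In the comparison of MCS with control at ZT14, 1 of the 9 genes, *Cxcl13*, passed an absolute log2 ratio of 1, against 404 of 12418 genes (3.25%), 219 higher and 185 lower. The intervals of all 9 lay below no change, against 18.8% of the 12418 genes. The log2 ratios of the 9 had a median of -0.52, beside 0.00 over the 12418 genes. Apart from *Cxcl13* they ran from -0.71 for *Pax5* to -0.36 for *Ms4a1*. At ZT2 none of the 9 passed a log2 ratio of 1, against 2.14% of 12694 genes. The intervals of 3 genes, *Cxcl13*, *Cxcr5* and *Bhlhe41*, lay above no change, against 11.4% of genes, and those of *Ms4a1* and *Blk* lay below it, against 10.9%. For *Cxcl13*, *Cxcr5* and *Bhlhe41* the ratios at ZT14 and ZT2 had opposite directions with both intervals clear of no change, as for 10.1% of 12290 genes with a log2 mean above 0 in both comparisons, and 4.85% of the 12290 in the direction of these 3. Since the genes were selected on these values, nothing is read from these counts.

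Between ZT2 and ZT14 in control, 1 of the 9 genes, *Cxcl13*, passed a log2 ratio of 1, against 3.5% of 12525 genes. The intervals of 8 genes lay below no change, against 15.7% of genes, and that of *Il5ra* included it, with a log2 ratio of 0.06 (-0.13 to 0.26). In MCS, *Cxcl13* again was the 1 gene past a log2 ratio of 1, against 5.51% of 12566 genes. In this comparison the intervals of 6 genes lay above no change, against 21.6% of genes. That of *Ms4a1* lay below it, at -0.15 (-0.24 to -0.07), against 22.1% of genes, and those of *Cd79b* and *Blk* included it. *Il5ra* had the largest of these ratios after *Cxcl13*, at 0.53 (0.32 to 0.74).

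The levels of the 9 genes were set beside each other after division by the length of the longest protein-coding transcript of each in GENCODE. On this scale of CPM per kilobase, averaged over the 4 libraries, *Cd79a* was the most abundant with 213, followed by *Cxcl13* with 208 and *Cd79b* with 160. *Ms4a1* had 84.5, *Cxcr5* 63.0 and *Blk* 54.8 CPM per kilobase. The transcription factors *Bhlhe41* and *Pax5* had 15.6 and 6.17, and *Il5ra* 12.8. *Cxcl13* changed its place in this order, with 380 CPM per kilobase in control at ZT14, above *Cd79a* with 253, and 91.9 in MCS at ZT14, below *Cd79a* with 160 and *Cd79b* with 143.

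A wider list held 23 genes that define B cells, of which 17 were among the deposited genes. The immunoglobulin genes *Ighm*, *Ighd*, *Igkc*, *Iglc1*, *Iglc2* and *Iglc3* were not among them, so they could not be examined. The summed expression of the 17 genes was 1553 CPM at ZT2 and 1772 CPM at ZT14 in control, and 1466 CPM at ZT2 and 1178 CPM at ZT14 with MCS. The sum was thus highest in control at ZT14 and lowest in MCS at ZT14, with a log2 ratio between these of -0.59 (-0.62 to -0.55). At ZT2 the log2 ratio of MCS to control was -0.08 (-0.12 to -0.05). Between ZT2 and ZT14 the sum had a log2 ratio of -0.19 in control (-0.22 to -0.16) and 0.32 in MCS (0.28 to 0.35). Of 17 genes, 16 had a log2 mean above 0 in the comparison at ZT14. All 16 were lower with MCS, against 49.5% of the 12418 genes, 13 of them with an interval below no change, against the 18.8% of genes given above, and their median log2 ratio was -0.58. The interval included no change for *Fcrl1*, *Tnfrsf13b* and *Ly6d*. At ZT2, 10 of 16 were lower with MCS, against 49.3% of genes. The intervals of 5 lay below no change, against 10.9% of genes, and that of 1, the lineage factor *Ebf1*, above it, against 11.4%.

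Of this list, *Bank1*, an adaptor protein of B cell receptor signalling, was the most abundant in CPM, with 296, 318, 276 and 245 CPM in control at ZT2, control at ZT14, MCS at ZT2 and MCS at ZT14. *Fcmr*, the receptor for the constant part of IgM, passed a log2 ratio of 1 at ZT14, with 76.7, 102, 75.9 and 38.1 CPM in the same order and a log2 ratio of MCS to control of -1.41 (-1.59 to -1.24). *Fcmr* was lowest in MCS at ZT14, and its ZT2 libraries did not differ beyond counting error. *Ebf1*, which acts with PAX5 in specifying B cells, had 105, 121, 120 and 64.1 CPM and a log2 ratio of -0.91 at ZT14 (-1.06 to -0.77). *Vpreb3* had at most 0.330 CPM, which is 3 reads, in any library.

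**Figure D2:**
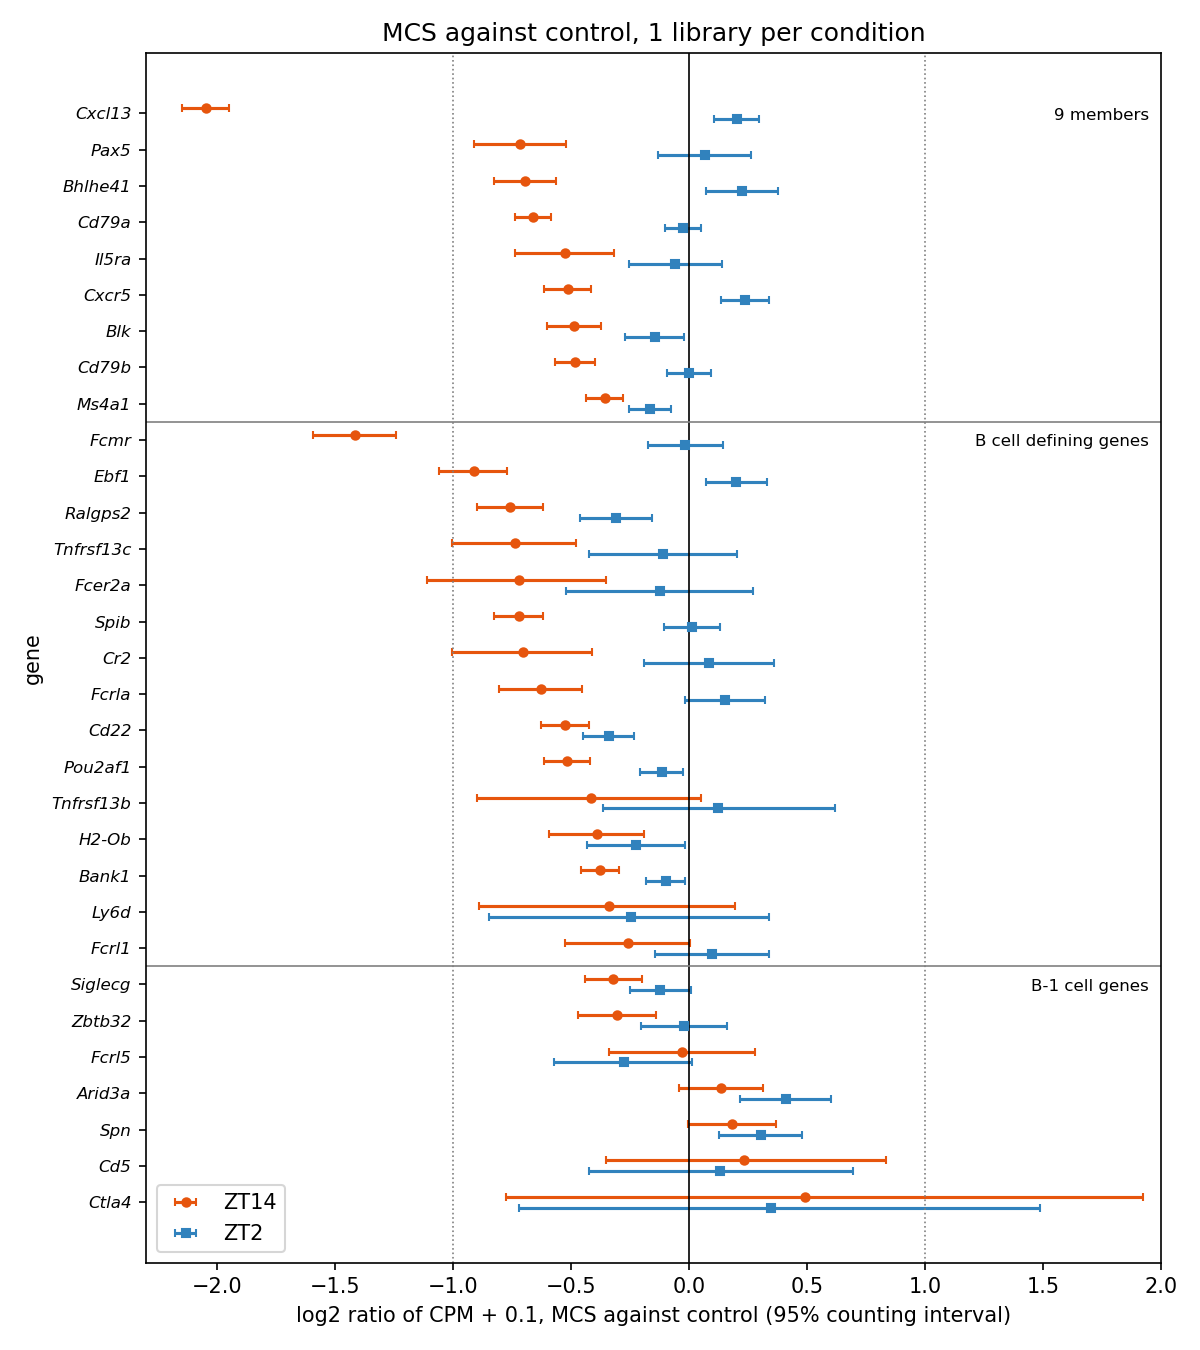
Log2 ratios of MCS to control (horizontal axis, CPM + 0.1) at ZT14 (circles) and ZT2 (squares) for the 9 genes, genes of the B cell defining list and further B-1 cell genes, with 95% counting intervals. Dotted lines mark log2 ratios of -1 and 1. At ZT14 the ratios of the 9 genes lay between -2.05 for *Cxcl13* and -0.36 for *Ms4a1*, and those of the B-1 cell genes lay on both sides of 0, with 5 of their 7 intervals including 0.

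Relative to the summed CPM of the 17 B cell defining genes, *Cxcl13* amounted to 12.4% at ZT2 and 24.7% at ZT14 in control, and to 15.1% at ZT2 and 8.97% at ZT14 with MCS. The log2 ratio of this quotient between MCS and control was -1.46 at ZT14 (-1.56 to -1.35) and 0.29 at ZT2 (0.19 to 0.39). *Cxcl13* thus differed between the ZT14 libraries by more than the B cell list did. For the other 8 genes the log2 ratio of the quotient at ZT14 was smaller in size. It was 0.23 for *Ms4a1* (0.15 to 0.32) and 0.11 for *Cd79b* (0.02 to 0.20), and for *Cxcr5*, *Cd79a*, *Pax5*, *Il5ra*, *Bhlhe41* and *Blk* the interval included 0. At ZT2 the quotients of *Cxcr5* and *Bhlhe41* were higher with MCS, by 0.32 (0.21 to 0.43) and 0.31 (0.16 to 0.46). Between ZT2 and ZT14 in control, the log2 ratio of the quotient was -0.99 for *Cxcl13* (-1.08 to -0.90), -0.57 for *Bhlhe41* (-0.71 to -0.43), -0.24 for *Cd79b* (-0.33 to -0.14), -0.16 for *Ms4a1* (-0.24 to -0.07), -0.13 for *Cxcr5* (-0.24 to -0.03) and 0.25 for *Il5ra* (0.06 to 0.44), and for *Cd79a*, *Pax5* and *Blk* the interval included 0. In MCS it was 0.76 for *Cxcl13* (0.64 to 0.87), 0.22 for *Il5ra* (0.01 to 0.43), 0.12 for *Cd79a* (0.03 to 0.21), 0.11 for *Cxcr5* (0.01 to 0.22), -0.16 for *Bhlhe41* (-0.30 to -0.01), -0.26 for *Cd79b* (-0.36 to -0.16), -0.27 for *Blk* (-0.40 to -0.14) and -0.47 for *Ms4a1* (-0.56 to -0.37), and the interval of *Pax5* included 0.

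The 7 further B-1 cell genes *Cd5*, *Spn*, *Zbtb32*, *Arid3a*, *Siglecg*, *Fcrl5* and *Ctla4* summed to 308, 329, 322 and 301 CPM, a log2 ratio of MCS to control of -0.13 at ZT14 (-0.20 to -0.05) and 0.07 at ZT2 (-0.01 to 0.14). *Cd5*, *Spn* and *Ctla4* are also expressed by T cells, so the sum is not one of B-1 cells alone. At ZT14, 3 of 7 were lower with MCS, against 49.5% of genes. The intervals of *Siglecg* and *Zbtb32* lay below no change, against 18.8% of genes, and those of the other 5 included it. *Siglecg*, an inhibitory lectin of B-1 cells and the most abundant of the list, had 116, 133, 107 and 107 CPM and a log2 ratio of -0.32 at ZT14 (-0.44 to -0.20). *Zbtb32* had a log2 ratio of -0.30 (-0.47 to -0.14). *Cd5*, the surface marker of B-1a cells, had 6.24, 4.94, 6.84 and 5.83 CPM.

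Of 11 genes that B cells share with myeloid cells, 10 were lower with MCS at ZT14, against 49.5% of all genes, and 9 of them had an interval below no change, against 18.8%. The exception was *Cd24a* with a log2 ratio of 0.48 (0.38 to 0.59). Their sum was 1226, 1504, 1239 and 1218 CPM, a log2 ratio of -0.30 at ZT14 (-0.34 to -0.27). *Cd37* was the most abundant, with 425, 460, 409 and 400 CPM. *Bcl11a*, a transcription factor of early B cells and of dendritic cells, had 48.2, 112, 61.9 and 56.1 CPM and passed a log2 ratio of 1 between ZT2 and ZT14 in control, at -1.21 (-1.38 to -1.05). Its highest library, as for *Cxcl13*, was control at ZT14.

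Among 21 genes of B cell receptor signalling, which other leukocytes also express, 14 were lower with MCS at ZT14, against 49.5% of all genes. The intervals of 13 lay below no change, against 18.8% of genes, and those of 4 above it, against 18.6%. Their sum was 4453, 4836, 4706 and 4159 CPM, and the kinase gene *Syk* was the most abundant with 891, 972, 948 and 775 CPM. The sum had a log2 ratio of MCS to control of -0.22 at ZT14 (-0.24 to -0.20) and 0.08 at ZT2 (0.06 to 0.10). *Malt1*, which acts between antigen receptors and NF-kappaB, had a log2 ratio of -0.59 (-0.71 to -0.48) at ZT14.

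Genes of plasma cells, the antibody-secreting stage, summed to 326, 364, 328 and 363 CPM, and their sum did not differ between MCS and control beyond counting error at ZT14, with a log2 ratio of 0.00 (-0.07 to 0.07), or at ZT2, with 0.01 (-0.07 to 0.09). The sum was mostly *Xbp1* and *Irf4*, which macrophages also express, and at ZT2 its genes differed in both directions, with log2 ratios of -0.65 for *Mzb1* (-0.89 to -0.41), 0.27 for *Irf4* (0.14 to 0.39) and 0.79 for *Sdc1*, each with an interval clear of no change. *Xbp1*, a factor of secretory cells, was the most abundant of them, with 150, 145, 144 and 161 CPM. *Prdm1*, the repressor that drives plasma cell differentiation, passed a log2 ratio of 1 at ZT14, with 10.7, 7.69, 8.58 and 3.37 CPM. It was lowest in MCS at ZT14, with a log2 ratio of -1.16 to control at ZT14 (-1.83 to -0.57) and of 1.32 for ZT2 against ZT14 in MCS (0.74 to 1.99). *Tnfrsf17*, which encodes the plasma cell receptor BCMA, had no reads in either MCS library and at most 0.330 CPM in control.

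The expression of inputs known to induce *Cxcl13* was also given. The 14 genes of the lymphotoxin and TNF pathways summed to 694, 812, 724 and 799 CPM, with *Tnfrsf1b* the most abundant at 162, 188, 181 and 220 CPM, and a log2 ratio of MCS to control of -0.02 at ZT14 (-0.07 to 0.02) and 0.06 at ZT2 (0.01 to 0.11). *Ltb*, the membrane-bound subunit of lymphotoxin, had 45.7, 82.4, 47.8 and 59.6 CPM. Of the ligands, *Lta* had 1.76 CPM in control and 0.614 CPM with MCS at ZT14, a log2 ratio of -1.38 (-3.16 to -0.09), and *Tnf* 6.48 and 2.66 CPM, a log2 ratio of -1.25 (-2.01 to -0.60). *Tnfsf14*, which encodes the ligand LIGHT, was higher with MCS at ZT14, with 4.50 against 1.32 CPM and a log2 ratio of 1.70 (0.83 to 2.83). In control, *Tnf* and *Tnfsf14* also passed a log2 ratio of 1 between ZT2 and ZT14, at -1.32 (-2.13 to -0.62) and 1.99 (1.14 to 3.12). Past the threshold were thus 3 of 14 genes at ZT14, against 3.25% of all genes, and 2 of 14 in control, against 3.5%. The intervals at ZT14 lay below no change for 6 genes, against 18.8%, above it for 3, against 18.6%, and included it for 5. The part of these inputs in the levels of *Cxcl13* was not tested.

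Other guidance cues of B cells were given by 15 genes of homing chemokines and oxysterols, of which 11 were among the deposited genes. They summed to 501, 529, 498 and 498 CPM, a log2 ratio of MCS to control of -0.09 at ZT14 (-0.15 to -0.03) and -0.01 at ZT2 (-0.07 to 0.05). *S1pr1*, the receptor by which lymphocytes leave tissues, was the most abundant, with 227, 308, 243 and 266 CPM. *Cxcr4*, the receptor for CXCL12, had 68.5, 31.7, 60.8 and 33.5 CPM and was higher at ZT2 than at ZT14 in control by a log2 ratio of 1.11 (0.90 to 1.32). *Cyp7b1*, which encodes an enzyme of oxysterol metabolism, had 2.54, 5.93, 1.62 and 5.01 CPM. Its log2 ratios of ZT2 to ZT14 were -1.19 in control (-2.01 to -0.48) and -1.57 in MCS (-2.60 to -0.75). Survival and growth factors of B cells were given by 7 genes, 4 of them among the deposited genes, which summed to 89.7, 95.2, 79.8 and 106 CPM, a log2 ratio of MCS to control of 0.15 at ZT14 (0.02 to 0.28) and -0.17 at ZT2 (-0.32 to -0.02). *Tnfsf13*, which encodes APRIL, was the most abundant of these, with 80.3, 87.2, 73.3 and 96.7 CPM.

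The profiles most like that of *Cxcl13* over the 4 libraries were sought among 9177 other genes with a mean log2 level above 3, by the Euclidean distance between log2 levels centred on the mean of each gene. The nearest was *Dtx1*, at a distance of 0.41, which encodes a regulator of Notch signalling and had 29.8, 54.5, 36.0 and 19.4 CPM in control at ZT2, control at ZT14, MCS at ZT2 and MCS at ZT14. *Agbl1* followed at 0.58, with 8.32, 12.4, 8.82 and 5.11 CPM. *Fcmr* was next at 0.59. *Scn4a*, at 0.66, had 15.4, 19.2, 15.1 and 7.67 CPM, and *Lyve1*, a hyaluronan receptor of lymphatic vessels and some macrophages, at 0.66, had 23.6, 30.9, 26.6 and 12.5 CPM. All 5 were highest in control at ZT14 and lowest in MCS at ZT14. By the correlation of the log2 profiles, which ignores the size of the differences, none of these 5 was among the nearest 5.

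The positions of the genes were taken from RefSeq on GRCm38.p6, the mm10 assembly that the submitters' processing notes name. *Cxcl13* lies on chromosome 5 at chr5:95956939-95961068, and *Cxcr5* on chromosome 9 at chr9:44511787-44526444. The receptor subunits lie apart, *Cd79a* at chr7:24897497-24901858 and *Cd79b* at chr11:106311341-106314562. *Il5ra* and *Bhlhe41* both lie on chromosome 6, at chr6:106710375-106749037 and chr6:145858243-145865420. In GENCODE, no exon of *Cxcl13*, *Cd79a*, *Cd79b*, *Ms4a1*, *Il5ra* or *Blk* overlapped an exon of another gene. Exons of *Cxcr5*, *Pax5* and *Bhlhe41* overlapped genes on the opposite strand, *Bcl9l* for *Cxcr5*. The libraries were directional, but no source used here states the strand setting of the counting, and the values of these 3 genes may hold reads of their antisense neighbours. Stretches of 31 bases shared with transcripts of other genes made up 12.2% of those in *Cd79a* (with *Gm32220*), 4.09% in *Il5ra* and 0.279% in *Bhlhe41*, and none in the other 6 genes.

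Promoter sequences from RefSeq on GRCm38.p6, which run from 250 bases before to 50 bases after the start, matched 5 of the 9 genes, *Cxcl13*, *Cd79a*, *Pax5*, *Il5ra* and *Bhlhe41*. They were searched on both strands for the box TATAAA, the E-box CACGTG, to which circadian basic helix-loop-helix factors bind, the octamer ATGCAAAT of B cell promoters and the NF-kappaB consensus. TATAAA was found in the promoter of *Cxcl13* and of no other of the 5, and in 13.6% of 32851 promoters of the same length. CACGTG was found in that of *Bhlhe41* alone, and in 7.15% of all promoters. The octamer and the NF-kappaB consensus, held by 1.74% and 8.46% of all promoters, had no match in the 5, which says only that these letters are not in these windows. Stretches that lie before every RefSeq and GENCODE start of the gene are printed for the ligand and for the clock-related repressor, the pair with the largest log2 ratios between ZT2 and ZT14 in control among the 9, 5′ to 3′, with TATAAA or CACGTG in capitals. A match is a description and not a binding site. That of *Cxcl13* covers chr5:95956689-95956938 on the plus strand, and ends at the start, with 40 bases between the motif and the start. That of *Bhlhe41* covers chr6:145865559-145865670 on the minus strand. It is the far part of its window, 112 bases long, and ends 138 bases before the RefSeq start, with 147 bases between the motif and that start.
Cxcl13: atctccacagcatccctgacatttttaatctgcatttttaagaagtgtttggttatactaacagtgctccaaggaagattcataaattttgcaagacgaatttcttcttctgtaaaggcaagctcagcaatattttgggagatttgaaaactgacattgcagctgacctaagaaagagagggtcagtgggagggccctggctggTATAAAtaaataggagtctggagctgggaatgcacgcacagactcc
Bhlhe41: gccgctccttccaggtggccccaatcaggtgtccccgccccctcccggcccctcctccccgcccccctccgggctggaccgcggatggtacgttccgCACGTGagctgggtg

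Genes of other peritoneal cells were set beside these levels. A gate on CD11b, F4/80 and absence of Ly6G leaves out most B cells, T cells, neutrophils, stromal and mesothelial cells, the authors lysed red blood cells when they collected cells of the cavity, and how many such cells remained was not measured here. The 12 genes of large peritoneal macrophages summed to 34477, 33435, 32643 and 37352 CPM, with *Lyz2* the most abundant. At ZT14, where the B cell genes were lower with MCS, this sum was higher by a log2 ratio of 0.16 (0.15 to 0.17), with an interval above no change for 9 of 12 genes, against 18.6% of all genes, and below it for *Prg4* and *Vsig4*. Its log2 ratio was -0.08 at ZT2 (-0.09 to -0.07), with 10 of 12 intervals below no change, against 10.9% of genes, and that of *Gata6*, a defining factor of these macrophages, above it, at 0.23 (0.07 to 0.39). The 7 genes of small peritoneal macrophages, led by *Cd74*, summed to 4596, 4303, 5228 and 4232 CPM, a log2 ratio of -0.02 at ZT14 (-0.04 to -0.00) and 0.19 at ZT2 (0.17 to 0.21), where 6 of 7 intervals lay above no change, against 11.4% of genes. This sum was mostly *Cd74*, *H2-Aa*, *H2-Ab1* and *H2-Eb1*, which B cells also express, so it is not a measure of macrophages alone. *Irf4* is in this list and in that of plasma cells. The 6 mast cell genes, led by *Cma1*, summed to 1818, 1183, 2240 and 952 CPM, with a log2 ratio of MCS to control of -0.31 at ZT14 (-0.35 to -0.27) and 0.30 at ZT2 (0.27 to 0.33). All 6 (*Cpa3*, *Cma1*, *Mcpt4*, *Tpsb2*, *Kit* and *Fcer1a*) were past a log2 ratio of 1 between ZT2 and ZT14 in MCS, higher at ZT2, against 5.51% of all genes past it in either direction. The mast cell sum, like the sum of the B cell defining genes, was thus lowest in MCS at ZT14, but between the times in control the mast cell sum was higher at ZT2 and the B cell sum lower.

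Eosinophil genes, of which *Ccr3*, *Siglecf* and *Ear2* of 7 were among the deposited genes, summed to 16.7, 9.78, 28.8 and 56.1 CPM, led by *Ccr3*. Their sum was higher with MCS at ZT14 by a log2 ratio of 2.52 (2.20 to 2.86). *Ear2* did not differ there beyond counting error, at 0.07 (-0.41 to 0.55). The 6 red blood cell genes, led by *Hbb-b1* and including *Hbb-b2* and *Hbb-bt* with identical values, summed to 3.23, 1.32, 36.7 and 112 CPM. *Hba-a2* had no reads in 3 libraries and 49.5 CPM in MCS at ZT14. Neutrophil genes, of which 7 of 8 were among the deposited genes, led by *Csf3r*, summed to 160, 212, 286 and 175 CPM, and *S100a8*, *S100a9*, *Retnlg*, *Ngp* and *Ltf* were past a log2 ratio of 1 with MCS at ZT2, all higher, against 2.14% of all genes past it in either direction. *Camp* and *Ngp* had no reads in MCS at ZT14. T cell genes, led by *Lck*, summed to 55.7, 39.7, 63.2 and 44.5 CPM, natural killer cell genes, led by *Gzma*, to 35.0, 18.9, 47.4 and 22.1 CPM, and dendritic cell genes, led by *Cd209a*, to 41.3, 33.6, 60.3 and 35.5 CPM. Mesothelial genes, led by *Krt8*, summed to 11.4, 5.16, 15.4 and 5.62 CPM, and stromal genes, led by *Dcn*, to 19.5, 5.27, 22.4 and 10.3 CPM, with *Pdgfra* at 0 reads in 3 libraries. Past a log2 ratio of 1 with MCS at ZT14 were *Siglecf*, *Ccr3*, *Cd8b1*, *Themis*, *Retnlg*, *Hba-a1*, *Hba-a2*, *Hbb-b1* and *Col3a1*, all higher, and *S100a9* and *Krt8*, both lower, against 3.25% of all genes, and the intervals of *Cd8b1* and *Krt8* included no change. At ZT2, beside the neutrophil genes above, *Cd8b1*, *Siglecf*, *Ccr3*, *Hba-a1*, *Hbb-b1* and *Krt8* passed, against 2.14%. All of these were higher with MCS, with intervals clear of no change. Between the times in control, *Ccr3*, *Cd3d*, *Ncr1*, *Klrb1c*, *Gzma*, *Upk3b*, *Lrrn4*, *Krt19*, *Pdgfrb*, *Col1a1*, *Col1a2*, *Col3a1* and *Dcn* passed, all higher at ZT2, against 3.5%, and the interval of *Lrrn4* included no change. In MCS, *Cd4*, *Ncr1*, *Klrb1c*, *Gzma*, *Eomes*, *Flt3*, *Clec9a*, *S100a8*, *S100a9*, *Ngp*, *Ltf*, *Msln*, *Upk3b*, *Krt8*, *Pdgfrb*, *Col1a1* and *Dcn* passed with higher levels at ZT2, and *Siglecf*, *Ccr3*, *Hba-a2* and *Hbb-b1* with lower, against 5.51%. The part of any of these cells in the levels of *Cxcl13* and the B cell genes was not tested.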

How the data were processed

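RNA-seq libraries of sorted peritoneal macrophages from 4 conditions were analysed, 1 per condition. The deposited CPM had been made by the authors, who, per the submitters' processing notes, used Trimmomatic 0.38, RSEM 1.3.0, Bowtie2 and edgeR on mm10. Whole reads were recovered by dividing each library by its smallest step, and 100% came out whole (tolerance 0.05 read). Since RSEM gives estimates, any rounding by the authors enters the intervals. For a gene without reads a floor of 3 reads was set, or 0.307 to 0.348 CPM by library, which is about the one-sided 95% Poisson limit and lower than the two-sided limit of the intervals. The floor entered no level, ratio or sum given here, and in ratios only the added 0.1 CPM applied.

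The members and lists were chosen with earlier results of these data known. A gene passed when its log2 ratio exceeded 1 in size and the log2 mean of both libraries exceeded 0. Here the log2 mean is the mean of the log2 values of CPM + 0.1. It was first computed as the log2 of the mean CPM, and changed after those counts had been compared with counts from earlier work on these data. That form is kept as an added alternative. Named genes were the 9 members, the most abundant and the passing genes of each list, markers of other cells at 0, and the 5 profiles nearest to *Cxcl13*. *Ebf1*, *Malt1*, *Ltb*, *Zbtb32*, *Cd5*, *Cd24a*, *Mzb1*, *Sdc1*, *Irf4*, *Prg4*, *Vsig4* and *Gata6*, among others, were named after their values were seen.

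A count test chosen after seeing the data, edgeR's quasi-likelihood test applied to recovered reads (time and MCS as additive terms, 1 residual degree of freedom), called 23 of 12404 genes with at least 40 reads (0.185%) for MCS at an adjusted threshold of 0.05. For time it called 271 (2.18%). The 9 genes were among those it ran over, but its results for them are not given. The share of genes with opposite directions at the 2 times was also computed after seeing the data. Scripts were tested on simulated data. Alternatives were other pseudocounts, TMM factors, minimum expressions and thresholds. Computations used R 4.3.3, edgeR 4.0.16, Python 3.11.15, scipy 1.17.1, numpy 2.4.6, matplotlib 3.10.9 and pandas 2.3.3. Flow cytometry and RT-PCR were not analysed here.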

Additional observations from a re-analysis of the deposited data

Results flagged for a closer look

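For 3 of the 9 genes, the ratio of MCS to control had opposite directions at ZT14 and ZT2, with both counting intervals clear of no change. The same held for 10.1% of 12290 genes, and the 9 genes were selected on these values. The log2 ratio at ZT14 minus that at ZT2 was -2.25 for *Cxcl13*, -0.752 for *Cxcr5* and -0.92 for *Bhlhe41*. It was also negative for the other 6, from -0.78 for *Pax5* and -0.64 for *Cd79a* to -0.19 for *Ms4a1*. It was negative too for the sums of the B cell defining genes (-0.50), mast cell genes (-0.61) and neutrophil genes (-1.12), so it is not particular to these 3. Sums that went the other way were those of eosinophil (1.74), red blood cell (2.90), stromal (0.77), large peritoneal macrophage (0.24) and B cell survival and growth factor genes (0.32). Each of the 3 was lower with MCS at ZT14 and higher with MCS at ZT2. With 1 library per condition the difference between the time points was not tested.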

How the results depend on the processing

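The log2 ratios of *Cxcl13* stayed within their counting intervals in 12 of 12 alternatives set for them, and so did the summed B cell genes in 8 of 8. The TMM factors lay between 0.99556 and 1.0086. No immunoglobulin gene of the list was among the deposited genes, so the alternative that leaves them out gives the same sum by construction. With a threshold of 2, *Cxcl13* no longer passed in the time comparisons, leaving 0 genes of the 9 in control and 0 in MCS. By correlation, 0 of the 5 genes nearest to *Cxcl13* were named again, which the measure's own construction allows, as it ignores size.

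The number of all genes past the threshold is given in the order MCS against control (ZT14, then ZT2) and ZT2 against ZT14 (control, then MCS). It was 404, 272, 438 and 692 as reported, 198, 121, 252 and 448 with a pseudocount of 1 CPM, 65, 21, 123 and 177 with a log2 mean above 3, 1615, 1434, 1567 and 2053 without a minimum, and 34, 26, 37 and 104 with a threshold of 2. Stricter limits give fewer genes by construction. With the log2 of the mean CPM, chosen after seeing the data and computed first, it was 452, 318, 490 and 765, and the count of the 9 genes was the same in each comparison.

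No paired analysis was possible because each condition has 1 library and the labels give no replicate numbers. Depth limits genes of few reads, such as *Lta* and *Cd5*, whose intervals are wide. Counting intervals do not cover variation between mice, sorts or libraries. The count test took its spread from what its additive terms for time and MCS left, with 1 residual degree of freedom. In this design that remainder holds any difference of the MCS ratio between the times. It cannot be told apart from variation between libraries. Results of the count test for *Cxcl13* and the other selected genes are not given. No value given for them covers variation between mice, sorts or libraries.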
